A study of Mus musculus with 8 samples.

Results

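The 10 genes described here, Lgr5, Ascl2, Smoc2, Axin2, Nkd1, Notum, Wif1, Rnf43, Znrf3 and T, are targets of Wnt signalling or markers of intestinal stem cells, and they were taken by symbol from the 20276 genes counted in the tumours. Single cells of mouse colon tumours had been sorted 1 per well into 8 plates of 384 wells each (3072 wells) and profiled by SORT-seq, a plate method that counts the 3′ ends of transcripts with unique molecular identifiers. Each plate held cells of 1 mouse. Colon tumour organoids had been grafted into the wall of the caecum, and 4 mice per genotype were sampled. In FibΔZeb1 mice, a tamoxifen-inducible Cre transgene removed both floxed Zeb1 alleles from fibroblasts. FibCtrl mice were Zeb1 fl/fl littermates without Cre, and mice of both genotypes ate the tamoxifen diet. The labels name the transgene Col1a1Cre-ERT2, whereas the methods of the study name a Col1a2 driver. The grafted organoids carried Apc deletion in both genotypes. The genotype is that of the host's fibroblasts and not of the graft. Replicates are separate mice, and n counts mice. The sort took EPCAM-positive cells, CD45-positive cells, cells negative for all markers, and empty wells. The ages of the mice and the gate of each well were not used here.

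Wnt proteins stabilise β-catenin, which enters the nucleus and activates target genes together with TCF and LEF factors. APC belongs to the complex that degrades β-catenin, so its loss switches the target genes on without a Wnt ligand, and this is the commonest first step of colorectal cancer. Many targets feed back on the pathway: Axin2 is a scaffold of the degrading complex, Nkd1 binds Dishevelled, Notum is a secreted enzyme that inactivates Wnt proteins, Wif1 is a secreted protein that binds them, and Rnf43 and Znrf3 are ubiquitin ligases that remove Frizzled receptors from the membrane. Lgr5, a receptor for R-spondins, marks the stem cells of the crypt base. Ascl2 is a transcription factor of the same cells, and Smoc2 is a secreted matrix-associated protein of their signature. T (brachyury) is a T-box factor of the embryonic mesoderm and a Wnt target there.

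The genes lie on 5 chromosomes of the GRCm38 build in the GENCODE M21 annotation. Lgr5 spans chr10:115450311-115587780 on the minus strand and Wif1 chr10:121033960-121100650 on the plus strand. On chromosome 11, Znrf3 spans chr11:5276324-5444847 (minus), Rnf43 chr11:87662722-87735539 (plus), Axin2 chr11:108920349-108950783 (plus) and Notum chr11:120653788-120661175 (minus). Smoc2 spans chr17:14279506-14404790 (plus), T chr17:8434423-8442496 (plus), Ascl2 chr7:142966829-142969264 (minus) and Nkd1 chr8:88521354-88594884 (plus). Whether counting used the strand is not given in the sources used here, and Lgr5, Axin2, Smoc2, Notum and Rnf43 overlap an annotated gene on the other strand, while Nkd1 and Rnf43 overlap another gene on their own strand. Reads in the same-strand overlaps may not be told apart, nor those in the other-strand overlaps if counting ignored the strand. Whether the overlaps reach the counted 3′ ends was not examined.

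The promoters of 6 of the 10 genes had an entry in the RefSeq table of GRCm38.p6. The core letters that TCF and LEF factors recognise, CTTTGA, were searched on both strands in the 250 bases before each start, where they read CTTTGA or TCAAAG. They occurred in 4544 of 32851 such windows of all genes (13.8%) and in 1 of the 7 windows listed for these genes. That window belongs to T and is shown with its match in capitals, 234 bases before the start site. The window of Axin2, the textbook feedback target, is set below it and holds no match.
T, chr17:8434173-8434422, plus strand: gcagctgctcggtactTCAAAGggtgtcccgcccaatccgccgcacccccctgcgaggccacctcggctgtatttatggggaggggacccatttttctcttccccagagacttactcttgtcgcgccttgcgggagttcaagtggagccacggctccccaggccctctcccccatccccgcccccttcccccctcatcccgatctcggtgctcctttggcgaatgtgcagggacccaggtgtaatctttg
Axin2, chr11:108920099-108920348, plus strand: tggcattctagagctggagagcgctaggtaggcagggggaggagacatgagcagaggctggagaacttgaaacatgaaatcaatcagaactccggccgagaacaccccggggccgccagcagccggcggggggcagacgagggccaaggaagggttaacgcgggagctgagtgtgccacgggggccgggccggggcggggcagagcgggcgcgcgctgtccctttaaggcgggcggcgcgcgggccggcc
A match is a description of the letters only, and factor binding was not measured.

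Of the 3072 wells, 1376 held at least 2000 transcripts after spike-in and mitochondrial transcripts were set aside, and the plates held between 981881 and 5905190 transcripts. Wells were classed from markers that are not among the 10 genes. A well was epithelial under the stricter rule when Epcam reached 2 transcripts and 5 epithelial markers made up at least 80% of all epithelial, stromal and immune marker transcripts. This rule left 0 epithelial wells on the plate of FibCtrl replicate 1 and 1 on that of FibΔZeb1 replicate 1, and 218 in all. On those plates the median number of transcripts from the 5 stromal markers was 134 and 53.1 per well, against 9.5 to 36.5 on the others. These medians cover wells with at least 2000 transcripts, 2 Epcam transcripts and 10 epithelial marker transcripts per 10000. They set no limit on stromal or immune markers. A wider rule, chosen after these values were seen, allowed up to 100 stromal marker transcripts per 10000 and gave 57, 21, 44 and 49 epithelial wells for FibCtrl replicates 1 to 4 and 51, 73, 72 and 60 for FibΔZeb1 replicates 1 to 4, 427 in all. Levels by plate are given under the wider rule, and tests under both. Epithelial wells had a median of 23356 transcripts, the 210 stromal wells 22903 and the 492 immune wells 4207. The summed level of the 5 epithelial markers in epithelial wells was 3414 to 7099 transcripts per 1000000 (CPM), that of the stromal markers 429 to 3494 and that of the immune markers 13.03 to 87.1. Among markers of other cells, the endothelial list summed to 0 to 61.6 CPM, the smooth muscle list to 0 to 17.4, the enteroendocrine list to 0 to 2.58, the goblet list to 10.0 to 1971 and the Paneth or deep crypt secretory list to 27.2 to 780. Wells with mature colon genes, such as Aqp8 and Slc26a3, at 0.1% or more of their transcripts numbered 7, 8, 1 and 0 in FibCtrl and 0, 47, 0 and 5 in FibΔZeb1. The caecum's own mucosa lies next to the graft, and the labels do not separate the host's epithelium from the graft's. Zeb1 itself stood at 80.6, 0, 23.8 and 72.8 CPM in the stromal wells of FibCtrl and at 46.6, 34.5, 47.9 and 26.5 in those of FibΔZeb1. The FibCtrl value of 0 came from 3 wells, the groups overlapped, and a 3′ count need not see a deletion elsewhere in the gene.

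On the mean over plates, all 10 genes were highest in epithelial wells. Against stromal wells the clearest separation was that of Rnf43, whose mean over plates there was 0.564% of that in epithelial wells, while in immune wells it stood at 4.13%. Epcam itself, which defines the class, stood at 2.498% in stromal and 4.52% in immune wells, and Wif1, at 2.74% and 3.78%, was close to it. Nkd1 stood at 9.33% and 9.63%, Notum at 9.58% and 14.5%, and Znrf3 at 10.6% and 12.6%. Axin2 stood at 7.42% and 6.64%, T at 5.90% and 7.26%, and Lgr5 at 5.10% and 6.88%. Smoc2 reached 25.3% in stromal wells, and Ascl2 6.17% in stromal and 32.8% in immune wells, from 8 transcripts in each class. The highest immune value of Ascl2, 24.1 CPM, came from FibCtrl replicate 2, whose 8 immune wells held 41492 transcripts in all. Its median over the immune wells of the plates was 2.32 CPM. Relative to the epithelial mean, all of the genes but Rnf43 stood above Epcam in stromal wells, and all but Rnf43, Wif1 and Smoc2 (4.08%) did in immune wells. The class rule requires Epcam in epithelial wells and limits the epithelial markers, Epcam among them, in stromal and immune wells. The 10 genes were under no such rule, so this order against Epcam is partly set by the classing.

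**Figure D1:**
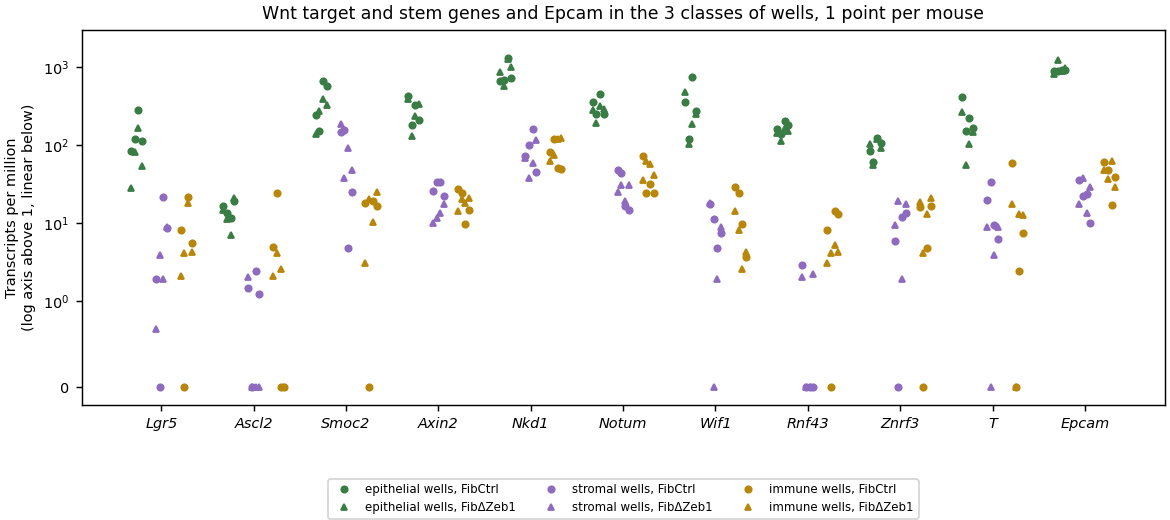
Level of each of the 10 genes, and of Epcam, in epithelial, stromal and immune wells, in CPM on an axis that is logarithmic above 1 and linear below, with 1 point per plate and class under the wider rule (circles FibCtrl, triangles FibΔZeb1). Epithelial points lie above the others except for Smoc2, which reaches 186 CPM in stromal wells against a lowest epithelial value of 140, Ascl2, which reaches 24.1 in immune wells against 7.07, and T, which reaches 58.4 in immune wells against 55.6. The Ascl2 value of 24.1 rests on 1 transcript in the immune wells of FibCtrl replicate 2.

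Tests compared counts summed per plate and class, with the plate as a term (edgeR quasi-likelihood test, Benjamini-Hochberg adjusted over all genes). Against stromal wells, under the stricter rule, on 5 plates, 30.8% of 9309 genes were called in either direction and 13.1% as higher in epithelial wells, and all 9 of the genes that could be tested were called higher. Rnf43 was 4.38 ± 0.63 log2 units higher (SE, adjusted p = 0.000669), T 4.16 ± 0.38 (adjusted p = 3.94e-05) and Lgr5 3.41 ± 0.35 (adjusted p = 7.72e-05). Smoc2 was 3.15 and Wif1 2.79 log2 units higher. Notum, Nkd1, Axin2 and Znrf3 were 2.39, 2.08, 1.89 and 1.71 log2 units higher. Ascl2 had too few transcripts for this test. The calls of Axin2 and Wif1 ended without FibCtrl replicate 3, FibCtrl replicate 4 or FibΔZeb1 replicate 4, with adjusted p up to 0.0634 and 0.0932. The wider rule, on 6 plates, called 44.8% of 10276 genes, 22.2% as higher, and 9 of the 10 genes were called higher, from 3.06 log2 units for Znrf3 to 6.23 ± 0.38 for Rnf43. Ascl2 was 3.09 ± 0.45 log2 units higher (adjusted p = 0.000341).

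Smoc2 was the exception under the wider rule, with 1.96 ± 0.75 log2 units and an adjusted p of 0.0573. Its level in stromal wells was 150, 156, 4.77 and 24.7 CPM in FibCtrl and 186, 38.4, 91.9 and 48.5 in FibΔZeb1. In epithelial wells it was 245, 150, 664 and 577 in FibCtrl and 140, 273, 391 and 331 in FibΔZeb1. On FibΔZeb1 replicate 1 and FibCtrl replicate 2 the stromal value was the larger, the latter from 3 stromal wells with 14 Smoc2 transcripts. Without FibCtrl replicate 1 or FibΔZeb1 replicate 1 the difference was called, with adjusted p down to 0.0178. In immune wells Smoc2 stood at 4.08% of its epithelial mean.

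Against immune wells, the stricter rule called 27.3% of 8489 genes on 4 plates, 14.3% as higher in epithelial wells, and all 9 testable genes were higher by 2.89 to 4.88 log2 units. Smoc2 showed the largest difference, 4.88 ± 0.45 (adjusted p = 1.58e-06), followed by Wif1 at 4.74 and T at 4.72. The wider rule, on 7 plates, called 49.8% of 9873 genes, 26% as higher, and the same 9 genes were higher by 2.55 (Notum) to 4.83 log2 units (Wif1). All of these calls held when any single plate was left out. Ascl2, with 8 transcripts over all immune wells and 192 over all epithelial wells, was not tested.

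Of 22 further Wnt targets and intestinal stem genes, 15 could be tested against stromal wells under the stricter rule, and 9 were higher in epithelial wells and none lower. Slc12a2, an ion cotransporter, was 3.04 ± 0.29 log2 units higher (adjusted p = 5.7e-05), Ccnd1 (cyclin D1) 2.43 ± 0.50 and Lef1, a partner of β-catenin, 1.90 ± 0.45. By the wider rule 15 of 19 were higher and 2 lower. There Fgf20, a growth factor, stood at a mean of 18.7 CPM in epithelial and 0.129 in stromal wells. The 18 genes of the signalling machinery behaved otherwise, with 2 of 17 tested higher and 4 lower under the stricter rule. Tcf7l1, a repressing TCF factor, was 3.83 ± 0.66 log2 units lower in epithelial wells (adjusted p = 0.00192), at a mean of 8 against 83.99 CPM. Against immune wells, 11 of 13 further targets were higher and 1 lower, and 3 of 15 machinery genes were higher and 0 lower. Tnfrsf19, a stem cell receptor, was listed at 0 in the immune wells of all 4 plates and at a mean of 77.4 CPM in epithelial wells.

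The share of wells in which a gene was seen depends on depth, so each well was thinned to 10000 transcripts, which left out 102 of the 427 epithelial wells. Nkd1 was then seen in 85.7% of epithelial wells, Notum in 78.3%, Axin2 in 77.9%, Rnf43 and Smoc2 both in 70.1%, Wif1 in 59.8%, Znrf3 in 53.6%, T in 52.1%, Lgr5 in 38.7% and Ascl2 in 10.9%. In stromal wells, of which 43 were too shallow, the share was 50.5% for Nkd1, 33.1% for Smoc2, 28.4% for Notum and 16.4% for Axin2. It was 3.65% for Lgr5 and 1.94% for Rnf43. In immune wells, 382 of which were too shallow, it was 43.3% for Nkd1 and 29.5% for Notum, close to the stromal shares, whereas Smoc2 stood at 8.83%. Without thinning, Lgr5 was seen in 46.6% of epithelial wells (199 of 427, Wilson 95% interval 41.9 to 51.3) and in 7.14% of stromal wells. Intervals here cover counting error only. Of the 427 wells, 14 held none of the 10 genes and 27 held all of them. The first had a median of 5700 transcripts and the last 74983.

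Among epithelial wells Lgr5, T, Wif1 and Smoc2 varied most between mice. Lgr5 was 84.4, 119, 280 and 114 CPM in FibCtrl and 28.4, 81.1, 166 and 54.2 in FibΔZeb1. Its highest and lowest plates differed 9.84-fold, those of T 7.38-fold, of Wif1 7.35-fold and of Smoc2 4.76-fold. The corresponding ratios were 2.35-fold for Notum, 2.29-fold for Nkd1 and 1.78-fold for Rnf43, against 1.52-fold for Epcam. Ascl2 was low throughout, at 16.5, 13.6, 11.6 and 18.97 CPM in FibCtrl and 14.8, 11.4, 7.07 and 20.99 in FibΔZeb1, and each value rests on 8 to 48 transcripts. The plates with the most Lgr5 were replicate 3 of either genotype, and the plates with the most Ascl2 were replicate 4 of either genotype. Replicates 1 and 2 were sequenced on a different flow cell from replicates 3 and 4.

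The comparison of genotypes asks whether the tumour cells' Wnt programme differed between hosts with and without fibroblast Zeb1. No gene was called in 9965 tested on 3 plates against 3 under the stricter rule (0%), where 223 had an unadjusted p under 0.05, or in 10365 tested on 4 against 4 under the wider rule (0%), where 181 did. DESeq2 called 0 under both rules, with 191 and 182 genes at an unadjusted p under 0.05. None of the 10 genes was called. Under the wider rule 9 of the 10 estimates lay below 0, with a median of -0.27 log2 units beside 0.01 over all genes, and under the stricter rule 8 of 10, with a median of -0.10. Of the 14 cycling genes used below to divide wells, 13 lay below 0 under the wider rule (median -0.70) and 14 under the stricter (median -1.49), and of 7 mature colon genes tested 5 lay above 0 under both (medians 0.54 and 0.62), with none called in either list. The part of the cycling genes in the members' values was not tested. With mature wells left out, Lgr5 stood at -0.97 and T at -0.86 log2 units under the stricter rule. Under the wider rule they stood at -0.88 and -0.73. Znrf3 then lay just above 0 under both rules (0.016 and 0.011), and none of the 10 genes was called.

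**Figure D2:**
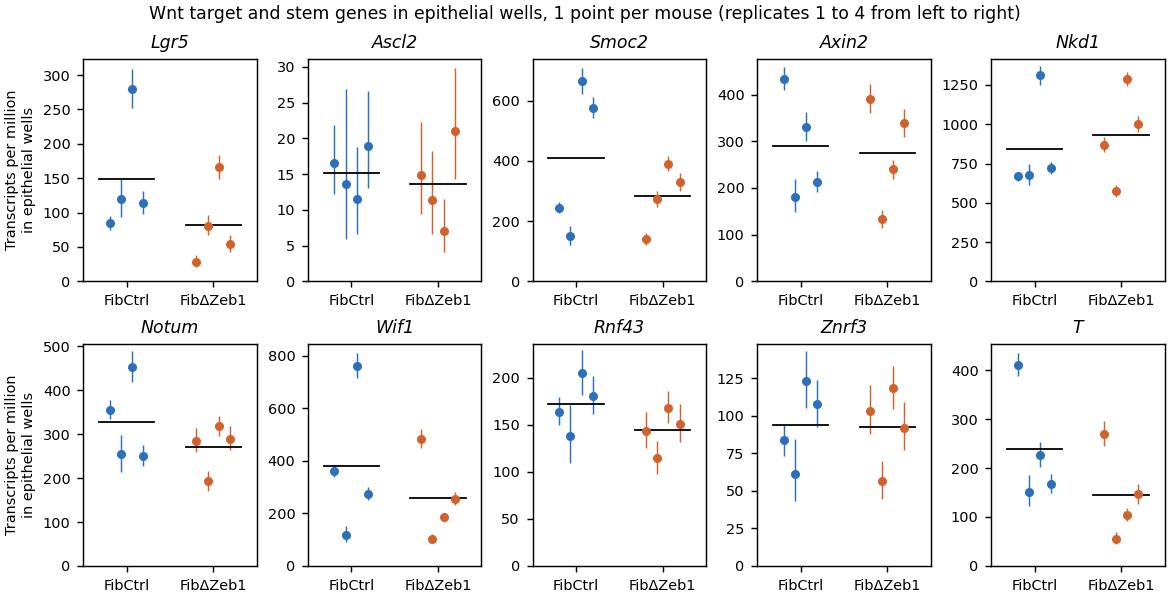
Level of each of the 10 genes in epithelial wells by genotype, in CPM on a linear axis from 0 under the wider rule, with 1 point per plate (4 FibCtrl and 4 FibΔZeb1 plates, replicates 1 to 4 from left to right), an exact Poisson interval for counting error on each point and a black bar at the group mean. The ranges of the 2 genotypes overlap for every gene.

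Lgr5 had a mean of 149 ± 88.2 CPM in FibCtrl and 82.4 ± 59.6 in FibΔZeb1 (SD, n = 4 each), a difference of -0.88 ± 0.51 log2 units (SE, adjusted p = 0.9998 by edgeR). The share of wells with Lgr5 at 10000 transcripts was 42.4, 38.4, 60.03 and 41.8% in FibCtrl and 17.5, 33.7, 45.8 and 32.2% in FibΔZeb1, and 1 FibΔZeb1 plate lay within the FibCtrl range. T was 411, 152, 226 and 167 CPM in FibCtrl and 269, 55.6, 104 and 147 in FibΔZeb1. On the 6 plates of the stricter rule it was the only gene of the 10 whose groups did not overlap, with FibΔZeb1 lower by -0.90 ± 0.33 log2 units (unadjusted p = 0.0266, adjusted p = 0.9997), where 3.44% of all genes were lower without overlap. With all 8 plates, where 0.685% of genes were lower without overlap, the difference was -0.73 ± 0.49 and the groups overlapped. Both estimates stayed below 0 whichever plate was left out, from -1.42 to -0.39 for Lgr5 and from -1.28 to -0.33 for T under the wider rule.

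The feedback genes lay closer to 0 or had wider errors. Nkd1 was 668, 679, 1311 and 721 CPM in FibCtrl and 868, 572, 1288 and 1001 in FibΔZeb1, a difference of 0.13 ± 0.28 log2 units. Axin2 was 434, 181, 330 and 213 against 391, 133, 240 and 339, a difference of -0.08 ± 0.38. In both, replicate 2 of FibΔZeb1 was the lowest plate, and it also held most of the mature wells. Notum (-0.28 ± 0.23), Rnf43 (-0.26 ± 0.16), Znrf3 (-0.02 ± 0.25), Smoc2 (-0.52 ± 0.44), Wif1 (-0.53 ± 0.57) and Ascl2 (-0.17 ± 0.38) did not pass either. The intervals are wide, and the misses do not show that the genotypes were alike. None of the further targets or machinery genes was called. The largest estimates among them under the wider rule were Tcf7l1 at -1.13 ± 1.04, Fgf20 at 1.07 ± 0.40 and Lgr4, another R-spondin receptor, at 0.89 ± 0.35 log2 units. Bmp4, a secreted BMP ligand, was at -1.43 ± 0.57 under the stricter rule.

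Within the tumours, epithelial wells of each plate were divided at the plate's median share of 14 cycling genes, such as Mki67 and Top2a. Several of the stem and feedback genes were lower in the wells with more cycling transcripts. Under the stricter rule 6.81% of 7890 genes were called, 3% as lower, and 4 of the 9 testable genes were called lower and none higher. These were Nkd1 at -1.43 ± 0.28 log2 units (SE, adjusted p = 0.0114), Lgr5 at -1.26 ± 0.28 (adjusted p = 0.0202), Smoc2 at -1.18 ± 0.21 (adjusted p = 0.00544) and Wif1 at -0.996 ± 0.25 (adjusted p = 0.0328). The wider rule called 11.2% of 8759 genes, 5.39% as lower, and 6 of the 10 genes were called lower. Lgr5 differed most, at -1.42 ± 0.22 (adjusted p = 0.000538), then Nkd1 at -1.21 ± 0.20 (adjusted p = 0.00119) and Smoc2 at -0.99 ± 0.17 (adjusted p = 0.00175).

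**Figure D3:**
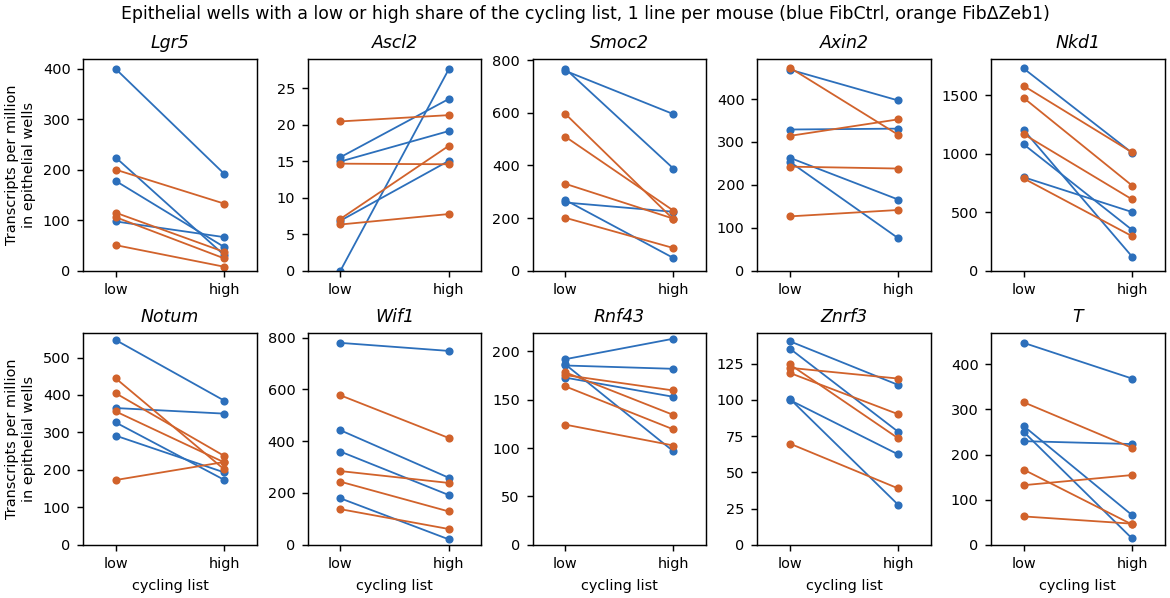
Level of each of the 10 genes in the low and high wells of each plate, divided at the plate's median share of cycling transcripts, in CPM on linear axes, with a line joining the values of 1 plate under the wider rule (blue FibCtrl, orange FibΔZeb1). Lgr5, Smoc2, Nkd1, Wif1 and Znrf3 fall from low to high wells on 8 of 8 plates, and Ascl2 rises on 7 of 8.

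Plate by plate, Lgr5 fell from 97.6 to 66.5, 224 to 31.1, 399 to 192 and 178 to 47.1 CPM between low and high wells of FibCtrl replicates 1 to 4. In FibΔZeb1 it fell from 50.7 to 7.95, 115 to 37.3, 200 to 133 and 106 to 24.5. The values of the high wells lay below those of the low wells on all 8 plates, by 1.47-fold to 7.22-fold, and 4.78% of all genes tested were lower on all 8 plates. Nkd1 fell from 799 to 502, 1203 to 121, 1728 to 1007 and 1080 to 349 in FibCtrl and from 1167 to 610, 789 to 296, 1579 to 1011 and 1476 to 728 in FibΔZeb1. Smoc2 fell from 259 to 224, 269 to 48.3, 759 to 595 and 768 to 388 in FibCtrl and from 201 to 86.2, 330 to 198, 596 to 195 and 509 to 228 in FibΔZeb1. FibCtrl replicate 2, with 10 wells on each side, showed the widest gap for each of the 3 genes.

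Wif1 was lower by -0.75 ± 0.18 log2 units (adjusted p = 0.0152), Znrf3 by -0.61 ± 0.14 (adjusted p = 0.0118) and Notum by -0.53 ± 0.14 (adjusted p = 0.0212) under the wider rule. T missed the threshold at -0.87 ± 0.29 (adjusted p = 0.0664), and Axin2 at -0.29 ± 0.15 and Rnf43 at -0.24 ± 0.11 were further from it. Ascl2 was the only one with an estimate above 0, at 0.62 ± 0.30 (adjusted p = 0.192), and it was higher in the high wells on 7 of 8 plates, each side of a plate resting on 0 to 25 transcripts. The calls of Lgr5, Nkd1, Smoc2, Wif1 and Znrf3 held whichever plate was left out, while that of Notum ended without FibCtrl replicate 4 or FibΔZeb1 replicate 1, 3 or 4 (adjusted p up to 0.0659). Under the stricter rule only Smoc2 kept its call throughout. There Lgr5 lost it without FibCtrl replicate 4 or FibΔZeb1 replicate 2, Nkd1 without FibCtrl replicate 4, and Wif1 without FibCtrl replicate 4 or FibΔZeb1 replicate 2 or 3, with adjusted p up to 0.119. Wif1 also lost it with 1 Epcam transcript as the only condition (adjusted p = 0.104). The median depth of low and high wells ranged over 11698 to 52916 and 10695 to 33722 transcripts, and the stromal marker sum over 418 to 3232 and 437 to 3845 CPM. On FibCtrl replicate 2 the low wells had a median of 31674 transcripts and the high wells 10695. The high wells also tended to hold more of the regenerative list described below. Of its 10 genes tested, 9 had estimates above 0 and 2 were called higher under both rules. Their medians were 0.38 (stricter) and 0.45 log2 units (wider), where 6.81% and 11.2% of all genes were called in either direction. The part of depth and of the regenerative list in these differences was not tested.

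Among the other Wnt genes, none of 14 further targets and none of 15 machinery genes was called under the stricter rule, where Cdca7 had 0.60 ± 0.23, Tcf7l2 -0.52 ± 0.19 and Ccnd1 0.51 ± 0.16 log2 units. With the wider rule Cdca7, a Myc-regulated gene, was higher in the high wells by 0.56 ± 0.17 (adjusted p = 0.0443). Tcf7l2, the main TCF factor of the gut epithelium, was lower by -0.47 ± 0.14 (adjusted p = 0.0450), Gsk3b, a kinase of the degrading complex, by -0.40 ± 0.12 (adjusted p = 0.0466) and Ctnnb1, which encodes β-catenin, by -0.35 ± 0.09 (adjusted p = 0.0248). Ctnnb1 was lower on 8 of 8 plates.

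The same wells were also divided at the plate's median share of 11 genes of regenerative, fetal-like epithelium, such as Ly6a, Clu and Anxa1. Under both rules the estimates for all genes of the 10 that could be tested were below 0 in the wells with more of these transcripts. Under the stricter rule 3.67% of 7791 genes were called, 1.67% as lower, and 5 of the 9 testable genes were called lower. Wif1 differed by -2.02 ± 0.48 log2 units (SE, adjusted p = 0.0430), Nkd1 by -1.77 ± 0.39 (adjusted p = 0.0321) and Znrf3 by -1.09 ± 0.25 (adjusted p = 0.0369). Notum differed by -0.92 ± 0.22 (adjusted p = 0.0403) and Axin2 by -0.79 ± 0.19 (adjusted p = 0.0400). Rnf43 at -0.77 (adjusted p = 0.121), T at -1.77 (adjusted p = 0.0755), Lgr5 at -1.12 ± 0.45 (adjusted p = 0.209) and Smoc2 at -0.97 ± 0.31 (adjusted p = 0.118) did not pass, although their estimates were of like size. DESeq2 called Smoc2 as well (adjusted p = 0.0265).

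**Figure D4:**
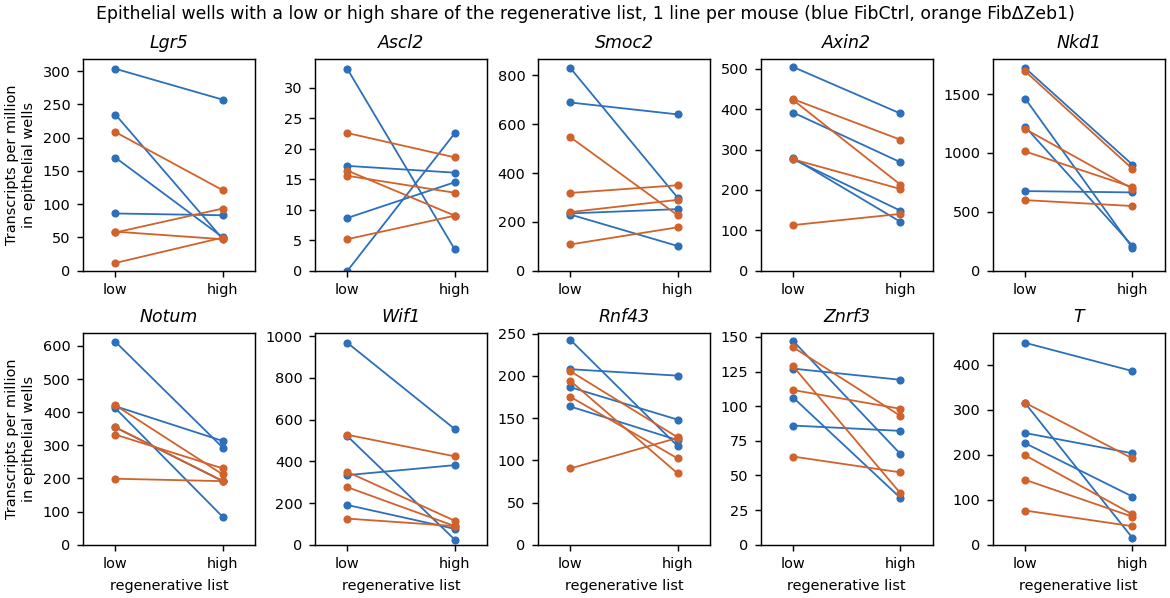
Level of each of the 10 genes in the low and high wells of each plate, divided at the plate's median share of regenerative-list transcripts, in CPM on linear axes, with a line joining the values of 1 plate under the wider rule (blue FibCtrl, orange FibΔZeb1). Notum, Nkd1, Znrf3 and T fall on 8 of 8 plates, and Smoc2 falls on 4 and rises on 4.

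With all 8 plates, 6.33% of 8777 genes were called, 2.29% as lower, and 3 of the 10 genes were among them. Notum fell from 418 to 313, 354 to 192, 613 to 293 and 412 to 84.3 CPM in FibCtrl and from 332 to 230, 199 to 192, 421 to 212 and 355 to 193 in FibΔZeb1. Its difference was -0.85 ± 0.18 log2 units (adjusted p = 0.0139), and it held whichever plate was left out. Nkd1 fell from 676 to 665, 1461 to 195, 1721 to 900 and 1223 to 212 in FibCtrl and from 1013 to 710, 600 to 550, 1693 to 866 and 1203 to 697 in FibΔZeb1. The fall was small on FibCtrl replicate 1 and FibΔZeb1 replicate 2 and wide on FibCtrl replicates 2 and 4. The low and high wells also differed in other ways on some plates. On FibCtrl replicate 2 the cycling genes summed to 279 CPM in low and 3785 in high wells, and over all plates to 279 to 963 and 293 to 3785. The median depth was 9721 to 39660 transcripts in low and 11225 to 47763 in high wells, and on FibΔZeb1 replicate 4 it was 22735 and 11225. The part of cycling and depth in these differences was not tested. Nkd1 differed by -1.02 ± 0.27 (adjusted p = 0.0413) and Axin2 by -0.53 ± 0.13 (adjusted p = 0.0307). T fell on 8 of 8 plates, as did 3.03% of all genes tested, from 315 to 15.2 on FibCtrl replicate 4 and from 449 to 386 on FibCtrl replicate 1, but missed the threshold at -1.10 ± 0.32 (adjusted p = 0.0527). Wif1 at -1.13 ± 0.35 (adjusted p = 0.0735) and Znrf3 at -0.62 ± 0.19 (adjusted p = 0.0758) missed it too. Lgr5 was 86.04 against 83.4, 235 against 47.9, 303 against 257 and 170 against 50.3 in low and high wells of FibCtrl, and 11.7 against 49.8, 57.5 against 93.4, 208 against 121 and 58.7 against 47.4 in FibΔZeb1. It was thus higher in the high wells on FibΔZeb1 replicates 1 and 2, and its estimate was -0.39 ± 0.31 (adjusted p = 0.528).

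Leaving out a plate ended most of these calls. Under the stricter rule, those of Axin2 and Znrf3 ended without FibCtrl replicate 2 or 4 or FibΔZeb1 replicate 3 or 4, that of Notum without FibCtrl replicate 3 or 4 or FibΔZeb1 replicate 3 or 4, that of Wif1 without FibCtrl replicate 4 or FibΔZeb1 replicate 2, 3 or 4, and that of Nkd1 without FibCtrl replicate 2 or FibΔZeb1 replicate 3, with adjusted p up to 0.139. With the wider rule those of Axin2 and Nkd1 ended without any plate but FibCtrl replicate 1 or FibΔZeb1 replicate 2 (adjusted p up to 0.105). The choice of wells and score mattered as well. With the mean log2 value as the score, none of the 5 calls of the stricter rule remained (adjusted p from 0.0977 for Znrf3 to 0.276 for Wif1). Without wells of high mitochondrial share those of Axin2 (adjusted p = 0.0822) and Wif1 (adjusted p = 0.0672) ended, and with 1 Epcam transcript as the only condition those of Axin2, Wif1, Notum and Znrf3 ended (adjusted p from 0.0532 to 0.229), while T was called (adjusted p = 0.0439). With mature wells removed the differences were wider: Nkd1 stood at -2.13 (adjusted p = 0.00954), Axin2 at -0.94 (adjusted p = 0.00652) and Lgr5 at -1.51 (adjusted p = 0.0312) under the stricter rule, and Wif1 missed narrowly at -2.09 (adjusted p = 0.0505). Mature wells numbered 5, 5, 0 and 0 in the low and 1, 3, 1 and 0 in the high wells of FibCtrl, and 0, 27, 0 and 1 and 0, 19, 0 and 4 in those of FibΔZeb1. By level, the 3 mature colon genes tested had estimates above 0 in the high wells under both rules, with none called. Their medians were 2.20 (stricter) and 2.24 log2 units (wider). From the goblet list, 1 gene was called lower under each rule, where 1.67% and 2.29% of all genes were. The part of these lists was not tested beyond leaving out mature wells. Of the further targets, Cd44, a hyaluronan receptor, was higher in the high wells under both rules, by 0.77 ± 0.16 (adjusted p = 0.0231) and 0.78 ± 0.15 (adjusted p = 0.00744), on every plate. Cdca7 was lower by -0.50 ± 0.11 (adjusted p = 0.0183) under the wider rule. None of 15 machinery genes was called. The term for a different effect in the 2 genotypes was called for 0% of genes under either rule (220 and 214 genes at an unadjusted p under 0.05), and DESeq2 called 3 genes under the stricter rule.

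The mature wells of FibΔZeb1 replicate 2 were numerous enough to be set beside the 26 other epithelial wells of the same plate, as a description of 1 mouse. The 47 mature wells had a median of 7386 transcripts and the others 34585. All 10 genes were lower in the mature wells, and the share of all genes that were lower there was not examined. Ascl2 rested on 4 transcripts in the mature wells, at 7.54 CPM (exact Poisson interval 2.05 to 19.3) against 13.5 (7.18 to 23.1). Smoc2 stood at 56.6 CPM in mature and 391 in other wells, 6.92-fold apart, Rnf43 at 30.2 and 161 (5.34-fold) and Wif1 at 28.3 and 145 (5.13-fold). Lgr5 differed least, with 58.5 (exact Poisson interval 39.7 to 82.9, counting error only) against 93.5 (75.1 to 115). Epcam went the other way, at 2011 in mature and 802 in other wells.

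Pairs of the genes were seen together in the same wells a little more often than their single shares would give. At 10000 transcripts per well the joint share, divided by the product of the 2 single shares within each plate, exceeded 1 for 43 of 45 pairs, with a median of 1.09 and a range of 0.971 to 1.22. Wif1 and T were both seen in 43.5% of wells against 35.8% from their single shares, and their ratio exceeded 1 on 8 of 8 plates. The ratio was 1.18 for Lgr5 and Znrf3 and 1.16 for Lgr5 and Smoc2. The pairs below 1 were Ascl2 with Wif1 and Ascl2 with T (0.971 and 0.974). The median was 1.15 at 5000 and 1.05 at 20000 transcripts, and 1.08 at 10000 without mature wells. Genes seen in most wells cannot exceed 1 by much, so the ratios do not rank the pairs. Pairs of other genes were not examined, so whether ratios above 1 are particular to these genes was not tested.

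**Figure D5:**
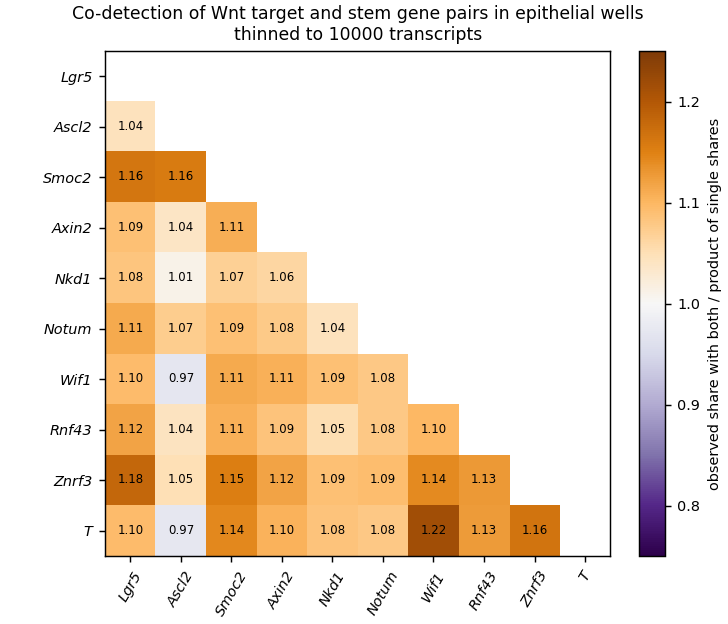
Co-detection of the 45 pairs of the 10 genes in epithelial wells thinned to 10000 transcripts, as the joint share of wells divided by the product of the single shares within each plate (colour scale, no unit). The 2 pairs below 1 both hold Ascl2, which stands at 1.16 with Smoc2, and Wif1 with T stands at 1.22.

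On the log2 scale of transcripts per 10000, with plate means removed, the highest correlations over the 427 wells were those of Notum with Nkd1 (r = 0.55), Wif1 with T (0.53), Nkd1 with Znrf3 (0.52) and Axin2 with Nkd1 (0.51). Lgr5 correlated best with Smoc2 (0.42). Ascl2 reached at most 0.11 with any of the others, and was the sparsest gene. The wells share plates and differ in depth, and the mean of the 10 genes itself correlated with log10 depth at 0.32, so the values are given as a description.

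The 10 genes most like the mean of the members over the 427 wells, among 9296 genes seen in at least 20% of epithelial wells, were Fgfrl1 (r = 0.72), Adcy1 and Aspscr1 (both 0.71), Sypl and Tcf4 (both 0.67), Otop1 (0.66), Gtf2i and Ifitm1 (both 0.65), Etv5 (0.63) and Slc7a8 (0.61). Fgfrl1 is a receptor-like protein that binds fibroblast growth factors, Adcy1 an adenylate cyclase and Etv5 an ETS factor. Tcf4 here is the E-protein gene and not Tcf7l2, which the older literature called by the same name. Under the stricter rule, over 217 wells, 8 of these 10 were again among the first 10, with Rab6a and Ptn in place of Otop1 and Slc7a8. Of the 18 further targets seen in enough wells, 17 correlated above 0, with a median of 0.22. Most of the 9296 genes lay above 0 too, so this count alone does not set the targets apart. Krt7, at r = 0.0075, ranked 7426, and Ccnd1, at 0.10, ranked 4742. Of 10 regenerative-list genes, 8 correlated below 0, from -0.47 for Ly6a to 0.07, and all 10 cycling genes seen in enough wells lay between -0.11 and -0.06.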

How the data were processed

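Single cells of 8 mice, 4 FibCtrl and 4 FibΔZeb1, were measured on 1 plate each. The authors mapped reads to GRCm38 (the submitters' processing notes list BWA and Cell Ranger 2.1.1) and deposited 1 table of genes by wells per plate, as estimated counts of transcripts corrected for collisions of molecular identifiers, of which 87.1% of non-zero values were exactly whole. The deposited estimated counts were summed per plate and class of well and then rounded. A collision correction raises high values most, and intervals cover counting error only.

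Wells with under 2000 transcripts, excluding spike-ins and mitochondrial transcripts, were left out. The stricter class rule was the planned one, and the wider one was added after the data were seen. No doublet caller was run. Further alleles of the graft are not reported here. Sums were compared with edgeR 4.0.16 quasi-likelihood tests in R 4.3.3 (TMM, filterByExpr, Benjamini-Hochberg over all genes, threshold 0.05), with DESeq2 1.42.0 as an alternative, and plates with under 10 wells of a class were left out. A test on simulated counts called 4.4% of genes changed by 1 log2 unit and 61.5% of those changed by 2 in the genotype comparison of the stricter rule (9633 genes), and 9% and 76.9% under the wider rule (10109 genes). For the regenerative split the shares were 58.5% and 99% of 7480 genes, and 78.1% and 100% of 8618. Before the change was added, the simulation gave a gene the same mean level on every plate, unlike the data. The shares may therefore be too high. Lists for splitting wells were left out of counts of genes called.

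The members and lists were chosen with earlier results of these data known. The 10 members were always named, with up to 5 called genes per comparison, by size of change, of the further Wnt and machinery lists, or the 3 with the largest change where none was called, and the 10 genes with the highest correlation with the members' mean. Fgf20 and Tnfrsf19 were also given by their levels. Depth, filter, mitochondrial, mature-well, Epcam, score, block and flow cell alternatives were run. Figures used matplotlib 3.10.9 under Python 3.11.15.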

Additional observations from a re-analysis of the deposited data

Results flagged for a closer look

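Of 26 groups of 4 plates examined, 2 had a plate farther from the others than Dixon's 95% critical value for 4 values allows, and chance gives about 1 such group in 20. Nkd1 in the epithelial wells of FibCtrl replicate 3 stood at 1311 CPM, against 668, 679 and 721 on the other FibCtrl plates. The 5 stromal markers in the epithelial wells of FibΔZeb1 replicate 1 summed to 2293 CPM, against 602 to 799 on the other FibΔZeb1 plates.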

How the results depend on the processing

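Counts of genes called depended on the wells and plates taken, and the wider rule and its variants were added after the data were seen. Epithelial against stromal wells gave 4600 genes under the wider rule and 4603 when mature wells were also left out, and epithelial against immune wells gave 4916 and 4868. The regenerative split gave 908 genes without a filter on low counts, 592 with 1 Epcam transcript as the only condition, 91 with the log score, 556 under the wider rule and 533 there without mature wells. The cycling split gave 1128 without a filter, 982 under the wider rule and 1089 there without mature wells. The term for a different effect in the genotypes gave 59 genes without a filter, 3 by DESeq2 and 2 without wells of high mitochondrial share. Leaving out a plate in turn, over both rules, gave 0 to 1 genes for genotype, 2172 to 4633 for epithelial against stromal, 1635 to 4929 for epithelial against immune, 51 to 532 for the regenerative split, 228 to 1167 for the cycling split and 0 to 1 for the interaction. The regenerative split gave 190, 110, 51 and 116 genes without FibCtrl replicates 2 and 4 and FibΔZeb1 replicates 3 and 4 under the stricter rule, against 286, and 254 and 298 without FibCtrl replicate 4 and FibΔZeb1 replicate 3 under the wider. The cycling split gave 228, 350, 247 and 337 without FibCtrl replicate 4 and FibΔZeb1 replicates 2 to 4, against 537, and 647 without replicate 4 of either genotype under the wider. The 1 call for genotype and the 1 for the interaction came without FibCtrl replicate 2. The cause was not tested.

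For genotype, Ascl2 turned from 0.08 log2 units to -0.31 with 1 Epcam transcript as the only condition, and to -0.17 under the wider rule, -0.19 with DESeq2, -0.22 with a replicate block, -0.18 with the flow cell as a term and -0.17 without mature wells there. Smoc2 and Notum turned to 0.046 and 0.069 with the replicate block, and Znrf3 to 0.016 (0.011 under the wider rule) without mature wells. In the regenerative split Ascl2 was 0.17 without a filter and Smoc2 0.084 with 1 Epcam transcript. Leaving out a plate moved the genotype estimates of Ascl2 over -0.47 to 0.36, Axin2 over -0.43 to 0.28, Smoc2 over -0.78 to 0.45, Wif1 over -1.31 to 0.42, Notum over -0.42 to 0.45, Nkd1 over -0.13 to 0.73, Rnf43 over -0.34 to 0.056 and Znrf3 over -0.31 to 0.27, and that of Ascl2 in the regenerative split over -0.39 to 0.17.

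Same-numbered plates deviated together with correlations of 0.303, 0.114 and -0.044 for replicates 2 to 4 under the stricter rule and 0.491, 0.300, 0.164 and -0.025 for replicates 1 to 4 under the wider rule. Because the plates of replicate 4 did not deviate together under either rule, the numbers were not taken to pair the mice. The values do not settle whether the mice were paired. With the replicate block 0 genes were called under both rules, with 253 and 326 at an unadjusted p under 0.05. Lgr5 and T were lower in FibΔZeb1 in all 4 same-numbered pairs, and with the block under the wider rule they differed by -0.98 ± 0.19 (unadjusted p = 0.000857) and -0.83 ± 0.24 log2 units (unadjusted p = 0.0102), both with an adjusted p of 0.9996 by edgeR. Under the wider rule FibCtrl replicates 1 to 3 each correlated best with the FibΔZeb1 plate of their own number, and replicate 4 with FibΔZeb1 replicate 3 (0.444). The main genotype test took no pairing. Ascl2 rests on under 50 transcripts per plate, and a difference of 1 log2 unit between genotypes would mostly be missed at this size.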
